A study of Mus musculus with 48 samples.

Results

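Cholesterol is built from acetyl-CoA through mevalonate, isoprenoid diphosphates, squalene and lanosterol. The enzymes of that route share a regulator, the membrane-bound transcription factor SREBP2 (gene Srebf2), which Scap escorts out of the endoplasmic reticulum when sterols are scarce and which the Insig proteins hold back when sterols are plentiful. Several late steps of the route, among them the removal of methyl groups from lanosterol, consume molecular oxygen. In the kidney the proximal tubule, the segment that reclaims most of the filtrate, is rich in membrane and takes up sterol-carrying proteins. The gene set described here holds 28 genes, all of them enzymes of the pathway, parts of the SREBP control system or sterol transport genes. They are named by gene symbol, with no threshold on measured values, although earlier results of these data were known when the set was drawn up. All 28 were found among the 55487 gene IDs of the count table and passed the filter on low counts in every comparison.

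RNA-seq was performed on kidney slices cultured outside the body, taken from 2 inbred mouse strains, C57BL/6J and DBA/2J (males). The 48 libraries form 16 groups of 3. In each strain there were control slices, slices given tunicamycin (an inhibitor of protein N-glycosylation) and slices given cyclosporin A (a calcineurin inhibitor), each at 6 h and at 24 h, and 2 groups under changed oxygen. The labels call normoxia an ischemia model and normoxia-hyperoxia a reperfusion model, and the titles put both at 24 h. The labels call the replicates biological. They give no age, no dose of either drug, no measured oxygen concentration and no mouse for a library. Whether each library came from a separate mouse is not stated, so p-values measure the spread between these samples, which may be in part technical. The titles of the control and drug libraries name nephrotoxicity, and those of the oxygen libraries name ischemia or reperfusion. Whether the oxygen slices were cultured alongside these controls is not stated, so an effect of a separate experiment and of the oxygen condition cannot be told apart in comparisons of normoxia or normoxia-hyperoxia with controls.

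Library totals ran from 5619309 to 25137581 counts. Replicate 2 of DBA/2J normoxia-hyperoxia was the shallowest, and the next total was 12384733. Levels are given in CPM, a gene's share of its library's counts on a common scale, after TMM normalization (a trimmed mean of log ratios between libraries), in the order of replicates 1, 2 and 3. Kidney markers were present: the 6 proximal tubule markers (Lrp2, Cubn, Slc34a1, Slc5a12, Slc22a6 and Aqp1) were above 0 in all 48 libraries. Of markers of other sterol-rich cells, Cyp11b1 of the adrenal cortex was at 0 in 45 libraries and Cyp11b2 in 46, and Adipoq, Plin1 and Cidec of adipocytes never exceeded 0.237 CPM. The summed level of the proximal tubule markers differed between conditions and is given beside the results. Of the remaining lists, Star was the single adrenal marker above 0.398 CPM (highest 24.4), and Ttr the single hepatocyte marker above 7.57 CPM (highest 81.2).

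Promoter sequence is shown for 7 members, picked after their values and motif matches were seen, to let their control regions be compared. Acat2, Nsdhl, Cyp51 and Mvd had the widest ranges of group means, Ebp is an enzyme of the late route that moved with them, and Msmo1 moved against them. Among members with a promoter window, Hmgcs1 was the single one with a match to TCACNCCAC, the form of the sterol element searched. SREBPs bind sterol regulatory elements and act together with NF-Y, which binds CCAAT. RefSeq windows on GRCm38.p6, from 250 bases before to 50 bases after the start site, were found for 23 of the 28 members. Each line below holds 100 bases on the gene's strand, 5′ to 3′, and capitals mark 2 motifs on either strand: CCAAT, which reads ATTGG when it lies on the opposite strand, and a sterol element, TCACNCCAC. The stretches are chr13:119690169-119690268 (plus strand) for Hmgcs1, chr17:12960726-12960825 (minus) for Acat2, chr5:4104698-4104797 (minus) for Cyp51, chr8:122443423-122443522 (minus) for Mvd, chrX:8193513-8193612 (minus) for Ebp, chrX:72918421-72918520 (plus) for Nsdhl and chr8:64733579-64733678 (minus) for Msmo1. All but that of Hmgcs1 end at the base before the start site. The Hmgcs1 stretch runs from 182 to 83 bases before it.
Hmgcs1: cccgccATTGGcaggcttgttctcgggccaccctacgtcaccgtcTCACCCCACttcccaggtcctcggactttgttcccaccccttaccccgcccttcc
Acat2: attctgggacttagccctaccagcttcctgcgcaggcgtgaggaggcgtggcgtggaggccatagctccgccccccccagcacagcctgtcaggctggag
Cyp51: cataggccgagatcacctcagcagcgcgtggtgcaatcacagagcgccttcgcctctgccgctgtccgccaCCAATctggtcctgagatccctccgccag
Mvd: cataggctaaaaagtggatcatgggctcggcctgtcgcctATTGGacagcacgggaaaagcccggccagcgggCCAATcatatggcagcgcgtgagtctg
Ebp: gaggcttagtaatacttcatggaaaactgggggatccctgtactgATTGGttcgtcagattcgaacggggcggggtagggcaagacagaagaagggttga
Nsdhl: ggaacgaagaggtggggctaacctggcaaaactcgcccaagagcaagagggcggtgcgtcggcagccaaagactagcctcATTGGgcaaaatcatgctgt
Msmo1: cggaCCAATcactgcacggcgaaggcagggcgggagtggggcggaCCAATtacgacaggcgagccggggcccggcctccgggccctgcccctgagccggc

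CCAAT, searched on both strands, lay in a window of 20 of the 23 members (87%) and of 41.1% of all 27025 genes with a window. The sterol element in the form TCACNCCAC was found in 1 of the 23 members, Hmgcs1, and in 1.44% of all genes. Other forms of the element were not searched. ACGTG, the core of the site bound by hypoxia-inducible factors, was found in 7 members (30.4%) and in 21.8% of all genes. These are matches of letters, not sites shown to be bound, and no match says only that the letters are not in the window.

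Per kilobase of exon, the median level over all 48 libraries was highest for Hmgcs1 (33.6 CPM per kb), the synthase that makes HMG-CoA, followed by Srebf2 (22.6), the squalene synthase Fdft1 (13.5) and the sterol dehydrogenase Nsdhl (13.1). It was lowest for Idi1 (1.32), the isopentenyl diphosphate isomerase, and for Abcg1 (1.69), a cholesterol exporter. Between groups, Acat2 spanned the widest range of mean levels, 14.9-fold, followed by Nsdhl at 11.9-fold, Cyp51 at 8.13-fold and Mvd at 6.99-fold. Insig1 spanned 1.55-fold and Insig2 1.6-fold. Some members share exon sequence with an expressed neighbour. Fdps does so with Gm43738 on the same strand (26.7% of its exon bases) and Tm7sf2 with Vps51 (12.1%). On the opposite strand Fdft1 overlaps Ctsb (18.3%), which had 857457 counts in all against 57602, Ggps1 overlaps Arid4b (5.4%), Cyp51 overlaps Akap9 (3.8%) and Srebf1 overlaps Rai1 (1.9%). Whether counting used strand is not given in the sources used here, so the levels of these members are uncertain to that extent. Acat2 has an expressed paralog, Acat3, with 8287 counts in all, and Ebp has one, Ebpl, with 4581.

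**Figure D1:**
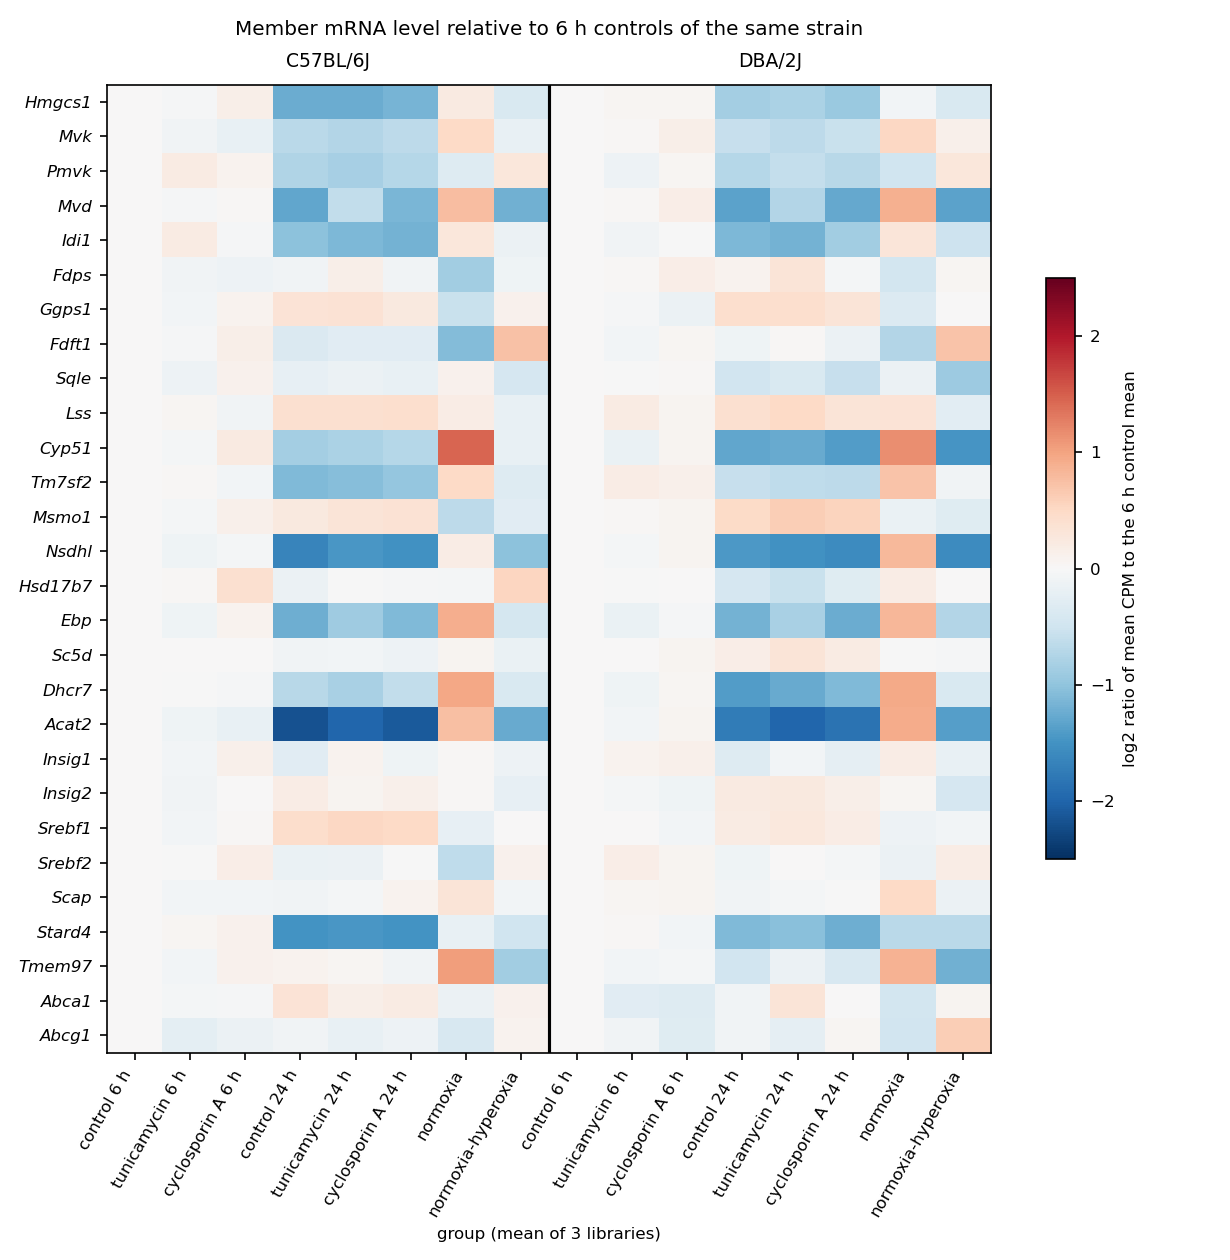
Colour gives the log2 ratio of each member's mean CPM (3 libraries) to the mean of the 6 h controls of the same strain, with members in rows and the 16 groups in columns. Drug groups look like the controls of their time, Acat2 and Nsdhl are darkest blue at 24 h, and the normoxia columns are red for Cyp51, Ebp, Dhcr7, Mvd and Acat2 but blue for Fdft1 and Msmo1.

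Time in culture was examined first, in control slices. Between 6 h and 24 h most of the pathway fell. All 6 enzymes from acetyl-CoA to isopentenyl diphosphate fell, by log2 changes from -1.97 for Acat2 to -0.64 for Mvk (the mevalonate kinase), as did 7 of the 10 enzymes from squalene to cholesterol. Of the 28 members 17 were lower and 5 were higher at an adjusted p under 0.05, where 37.4% and 34.7% of all 16962 genes tested were lower and higher. The median log2 change was -0.31 for the members and -0.02 for all genes.

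Acat2, the cytosolic thiolase that joins 2 acetyl-CoA at the start of the route, fell furthest. Its CPM in C57BL/6J were 36.5, 25.7 and 33.4 at 6 h and 6.0, 9.35 and 5.8 at 24 h, and in DBA/2J 59.2, 47.3 and 58.9 at 6 h and 18.4, 11.6 and 19.3 at 24 h. Every 24 h library lay below every 6 h library of its strain. The fall over both strains was 3.92-fold (log2 -1.97, SE 0.157, adjusted p = 1.4e-07). Nsdhl, which helps strip the methyl groups from lanosterol, went from 50.9, 32.1 and 49.5 to 12.6, 15.2 and 14.5 CPM in C57BL/6J and from 104.0, 89.3 and 91.6 to 39.3, 28 and 37.4 in DBA/2J. The groups did not overlap, and the fall was 2.96-fold (log2 -1.57, SE 0.121, adjusted p = 6.76e-08).

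Mvd, the decarboxylase that makes isopentenyl diphosphate, had 25.6, 17.6 and 20.5 CPM at 6 h and 10, 8.83 and 6.83 at 24 h in C57BL/6J. In DBA/2J it had 36.2, 29.8 and 30.5 at 6 h and 14.3, 9.47 and 14.5 at 24 h. Its libraries separated by time in both strains, with a 2.52-fold fall (log2 -1.34, SE 0.132, adjusted p = 4.4e-07). Stard4, a cytosolic carrier of cholesterol between membranes, had 70.4, 74 and 80.8 CPM at 6 h and 21.7, 29.9 and 27.8 at 24 h in C57BL/6J, and 88.2, 111.0 and 87.5 against 38.7, 50.1 and 44.4 in DBA/2J. It too separated by time in both strains, with a 2.5-fold fall (log2 -1.32, SE 0.0949, adjusted p = 1.36e-08). Ebp, the sterol isomerase, fell by 1.22 on the log2 scale, Cyp51, the lanosterol demethylase, by 1.10, Idi1 by 1.09, and Hmgcs1 and Dhcr7, the reductase that ends a branch of the route, by 1.06 each.

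The 5 members that rose did so by less. Lss, which closes squalene epoxide into lanosterol, rose in C57BL/6J from 21.8, 20.9 and 22.9 to 30.3, 28 and 28.2 CPM and in DBA/2J from 22.4, 22.9 and 25 to 28.7, 30.5 and 33. Its groups did not overlap, and the rise was 1.3-fold (log2 0.38, SE 0.0655, adjusted p = 0.00011). Ggps1, which makes geranylgeranyl diphosphate for protein prenylation and so leads away from sterols, rose 1.28-fold (log2 0.36, SE 0.0726, adjusted p = 0.000435). Its CPM were 33.9, 43.9 and 39.9 at 6 h and 50.2, 50.8 and 47.9 at 24 h in C57BL/6J and 22.8, 22.9 and 22.5 against 32.8, 31 and 27 in DBA/2J, again without overlap.

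Msmo1, the methylsterol oxidase that works beside Nsdhl, rose 1.27-fold (log2 0.35, SE 0.0916, adjusted p = 0.00334). The C57BL/6J libraries held 45, 63.4 and 72.4 CPM at 6 h and 68, 72.4 and 75.2 at 24 h, and the DBA/2J libraries 50.6, 53.7 and 50.4 against 75.4, 72.3 and 67.5, so the times overlapped in C57BL/6J and not in DBA/2J. Srebf1, which encodes the SREBP of fatty acid synthesis, rose 1.23-fold (log2 0.30, SE 0.0607, adjusted p = 0.000423), from 54, 52.3 and 52.5 to 67.7, 73.3 and 74.6 CPM in C57BL/6J and from 59.4, 59.3 and 55 to 59.7, 72.7 and 66.7 in DBA/2J. All its 24 h libraries were above all 6 h libraries of their strain. Insig2, the Insig whose mRNA does not depend on SREBP in most cells, rose by log2 0.19 (adjusted p = 0.0129), which did not pass with no filter on low counts (adjusted p = 0.0923).

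Insig1, an SREBP target, fell by 0.32 on the log2 scale (adjusted p = 0.00269), and Sqle, the squalene epoxidase that takes the first oxygen-consuming step, fell by 0.37 (adjusted p = 0.000369). Srebf2 itself had log2 -0.15 (SE 0.0635, adjusted p = 0.0483) with TMM scaling but 0.07 (adjusted p = 0.348) when scaled by library totals alone, and it missed the threshold in 9 of the 12 fits that left out 1 library, all but those without C57BL/6J 6 h replicate 1, DBA/2J 6 h replicate 3 or DBA/2J 24 h replicate 2. It passed in none of the other alternatives either, the replicate block among them (adjusted p = 0.0726). Abca1 and Abcg1, cholesterol exporters switched on by the oxysterol receptor LXR, had log2 0.11 (adjusted p = 0.364) and -0.09 (adjusted p = 0.503), and neither passed. With library totals alone the median of all genes moved by 0.21, the split became 8 higher and 12 lower, and Fdft1, Sqle, Hsd17b7 and Insig1 no longer passed (adjusted p from 0.0727 to 0.629). The shares of all genes higher and lower under that scaling are not given here. No member had a change that differed between the strains by edgeR's quasi-likelihood test, where 0.69% of all genes did. At an unadjusted p under 0.05 there were 5 members and 13.2% of all genes.

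Proximal tubule markers moved with the pathway. All 6 fell between 6 h and 24 h, with a median log2 change of -2.68, and their summed level went from between 2360 and 4670 CPM to between 324 and 474 in C57BL/6J and from between 5250 and 6280 to between 744 and 1610 in DBA/2J. The share of counts from the 37 mitochondrial genes was 8.05% to 16.3% at 6 h and 3.39% to 7.87% at 24 h. Markers of the other tubule segments fell as well, all 2 of the loop of Henle, 2 of the distal convoluted tubule, 3 of principal cells and 3 of intercalated cells, and so did 2 of 2 podocyte, 3 of 3 fibroblast, 2 of 3 endothelial, 2 of 4 leukocyte and both tested hepatocyte markers (median -2.82). The adrenal marker Star (log2 1.76) and 1 leukocyte marker rose. The part of any of these in the fall of the members was not tested. In these bulk libraries fewer cells of a type and less RNA per cell cannot be told apart.

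**Figure D2:**
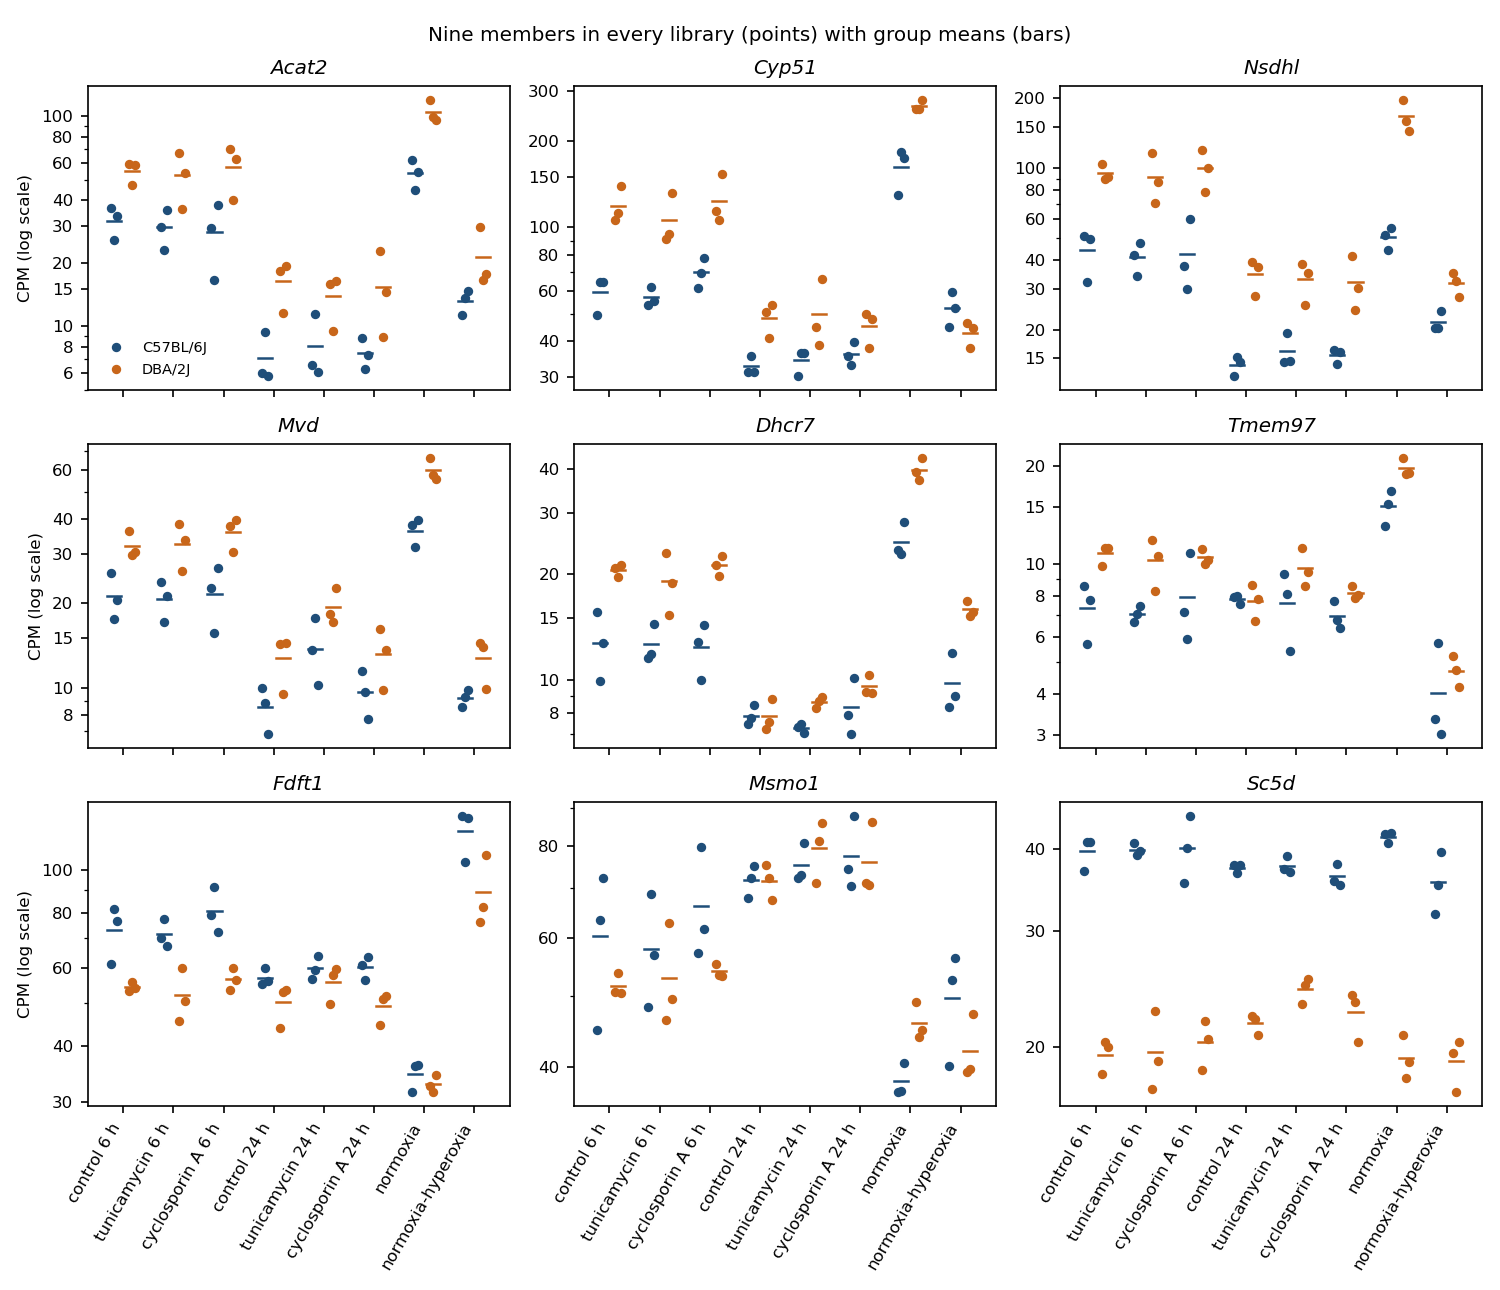
Each point is a library, with CPM on a log axis, for 9 members in the 8 conditions (blue C57BL/6J, orange DBA/2J, bars at group means of 3). Acat2, Cyp51, Nsdhl, Mvd and Dhcr7 drop at 24 h and peak under normoxia, Fdft1 is lowest under normoxia and highest under normoxia-hyperoxia, and Sc5d is lower in every DBA/2J group than in the C57BL/6J group of the same condition.

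Normoxia was compared with the 24 h controls, which also enter the comparison of times, so the directions of the 2 comparisons are not independent. Against these controls 17 members were higher and 9 lower, where 42.4% and 39.7% of all 17375 genes were. All 6 enzymes from acetyl-CoA to isopentenyl diphosphate were higher, from log2 0.36 for Pmvk (phosphomevalonate kinase) to 2.84 for Acat2, and 7 of the 10 from squalene to cholesterol. The 3 enzymes at the isoprenoid branch point, Fdps, Ggps1 and Fdft1, were all lower. The median log2 change was 0.42 for the members and 0.05 for all genes.

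Acat2 reached 61.8, 44.4 and 54.3 CPM under normoxia in C57BL/6J and 120.0, 99 and 96.6 in DBA/2J. All these libraries stood above the 24 h controls given earlier, 7.14-fold in the fit (log2 2.84, SE 0.157, adjusted p = 6.41e-09). Cyp51 rose from 31.2, 35.7 and 31.3 CPM in the 24 h controls to 130, 184.0 and 175.0 in C57BL/6J and from 50.8, 41 and 53.6 to 260.0, 260.0 and 279.0 in DBA/2J. Its groups lay far apart, with a rise of 5.38-fold (log2 2.43, SE 0.088, adjusted p = 1.06e-12). Its DBA/2J normoxia mean of 266.0 ± 11.4 CPM (SD, n = 3) was more than the 119.0 ± 18.1 of the 6 h controls.

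Mvd rose 4.58-fold (log2 2.2, SE 0.114, adjusted p = 1.61e-10), with 38, 31.7 and 39.6 CPM in C57BL/6J and 66.2, 57.7 and 55.6 in DBA/2J. Ebp went from 15.3, 15.7 and 17.1 to 74.9, 66.3 and 66.7 CPM in C57BL/6J and from 19.7, 17.3 and 20.7 to 81.3, 75.4 and 76.6 in DBA/2J, which is 4.31-fold (log2 2.11, SE 0.0626, adjusted p = 6.07e-14). Neither gene overlapped between conditions in either strain. Nsdhl rose by log2 2.09 and Dhcr7 by 2.05, followed by Tm7sf2, a sterol reductase (1.48), Idi1 (1.40), Tmem97, an endoplasmic reticulum and lysosome protein that lowers the cholesterol exporter Npc1 (1.19), Hmgcs1 (1.17), Mvk (1.16), Stard4 (0.92) and Scap (0.54).

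Ggps1 fell 1.72-fold under normoxia (log2 -0.78, SE 0.0676, adjusted p = 2.18e-08), to 26.4, 27.3 and 26.6 CPM in C57BL/6J and 20.6, 16.3 and 17.2 in DBA/2J. Msmo1 fell 1.66-fold (log2 -0.73, SE 0.0535, adjusted p = 2.56e-09), to 37, 37.2 and 40.6 in C57BL/6J and 49, 44 and 45 in DBA/2J. All these libraries were below their 24 h controls, while Cyp51, which acts earlier in the removal of the methyl groups, and Nsdhl, which acts with Msmo1, rose. Fdps, which makes farnesyl diphosphate, fell 1.54-fold (log2 -0.62, SE 0.0597, adjusted p = 8.01e-08) and Fdft1, which commits farnesyl diphosphate to squalene, also fell 1.54-fold (log2 -0.62, SE 0.064, adjusted p = 1.67e-07). Fdps had 38.9, 42.3 and 41 CPM in the C57BL/6J controls and 24.4, 22.3 and 24.6 under normoxia, and 40.7, 38.4 and 37.1 against 28.9, 26.3 and 24.4 in DBA/2J. Fdft1 had 55.2, 59.9 and 56.1 against 31.6, 36 and 36.3 in C57BL/6J and 43.9, 53 and 53.6 against 32.5, 31.5 and 34.5 in DBA/2J, without overlap.

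In the control system, Insig1 rose by log2 0.44 (adjusted p = 2.19e-05), Srebf1 fell by 0.45 (adjusted p = 9.22e-06) and Srebf2 fell by 0.21 (adjusted p = 0.00568) over both strains, which differed in its response. Insig2 had log2 -0.13 (adjusted p = 0.0399), which missed the threshold in 9 of 12 fits that left out 1 library (adjusted p up to 0.133; it passed only without C57BL/6J 24 h control replicate 2, DBA/2J 24 h control replicate 3 or C57BL/6J normoxia replicate 2), with no filter on low counts (0.19) and with the replicate block (0.0687). Sqle rose by 0.37 (adjusted p = 0.00795). The exporters fell, Abca1 by 0.39 (adjusted p = 0.00433) and Abcg1 by 0.32 (adjusted p = 0.0216), Abcg1 not passing without C57BL/6J 24 h control replicate 2, DBA/2J 24 h control replicate 2, C57BL/6J normoxia replicate 3 or DBA/2J normoxia replicate 1 (adjusted p from 0.0523 to 0.0751). Lss (log2 -0.09, adjusted p = 0.25) and Sc5d, the sterol desaturase (0.03, adjusted p = 0.601), did not pass. Scaled by library totals alone, all genes moved by -0.27 in the median and Pmvk, Sqle and Hsd17b7 no longer passed (adjusted p from 0.192 to 0.453).

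Proximal tubule markers moved the same way here too. All 6 were higher under normoxia, with a median log2 change of 3.73, and their sum lay between 4770 and 7330 CPM in C57BL/6J and between 12000 and 13400 in DBA/2J. Markers of other tubule segments rose as well, 2 of 2 of the loop of Henle (median 1.56), 2 of 2 of the distal convoluted tubule (1.73), 2 of 3 of principal cells (1.11) and 3 of 3 of intercalated cells (3.21), as did 3 of 3 hepatocyte markers (2.04). Both podocyte markers (-0.48), Star of the adrenal cortex (-2.57) and 1 of 3 fibroblast markers fell, 2 of 4 leukocyte markers rose and 1 fell, and of 3 endothelial markers 1 rose and 1 fell. The mitochondrial share was 11.8% to 25.6%. Their part in the rise of the members was not tested.

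Of the 28 members 7 responded differently to normoxia in the 2 strains, against 17% of all genes. The rise of Stard4 was smaller in DBA/2J, log2 0.52 (SE 0.111) against 1.32 (SE 0.114) in C57BL/6J, a difference of -0.81 (SE 0.158, adjusted p = 0.00331), and that of Hmgcs1 was 0.86 (SE 0.0905) against 1.47 (SE 0.0916), a difference of -0.61 (SE 0.127, adjusted p = 0.00516). Dhcr7 went the other way, with 2.43 (SE 0.117) in DBA/2J against 1.66 (SE 0.118), a difference of 0.77 (SE 0.164, adjusted p = 0.00588). Its CPM were 39.3, 37.2 and 43 in DBA/2J normoxia and 23.5, 22.9 and 28.2 in C57BL/6J normoxia, above 24 h controls that overlapped between the strains (7.2, 7.56 and 8.78 against 7.46, 7.74 and 8.44). Srebf2 fell in C57BL/6J, from 163.0, 170.0 and 154.0 to 113.0, 106.0 and 132.0 CPM (log2 -0.47, adjusted p = 0.000215), and stood at 136.0, 155.0 and 145.0 against 131.0, 145.0 and 148.0 in DBA/2J (log2 0.04, adjusted p = 0.709). The difference between the strains was 0.51 (SE 0.128, adjusted p = 0.0143), which did not pass without C57BL/6J 24 h control replicate 3 or DBA/2J 24 h control replicates 1 or 3 (adjusted p up to 0.0902). Stard4, Hmgcs1 and Dhcr7 passed under all alternatives tried, and the other 4 did not. The count of 7 fell to 3 without C57BL/6J 24 h control replicate 3, DBA/2J 24 h control replicate 1 or replicate 3, and to 4 without DBA/2J 24 h control replicate 2 or DBA/2J normoxia replicate 1. It was 1 higher and 3 lower with library totals alone, where no share of all genes is given, against 5 higher and 2 lower with TMM.

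**Figure D3:**
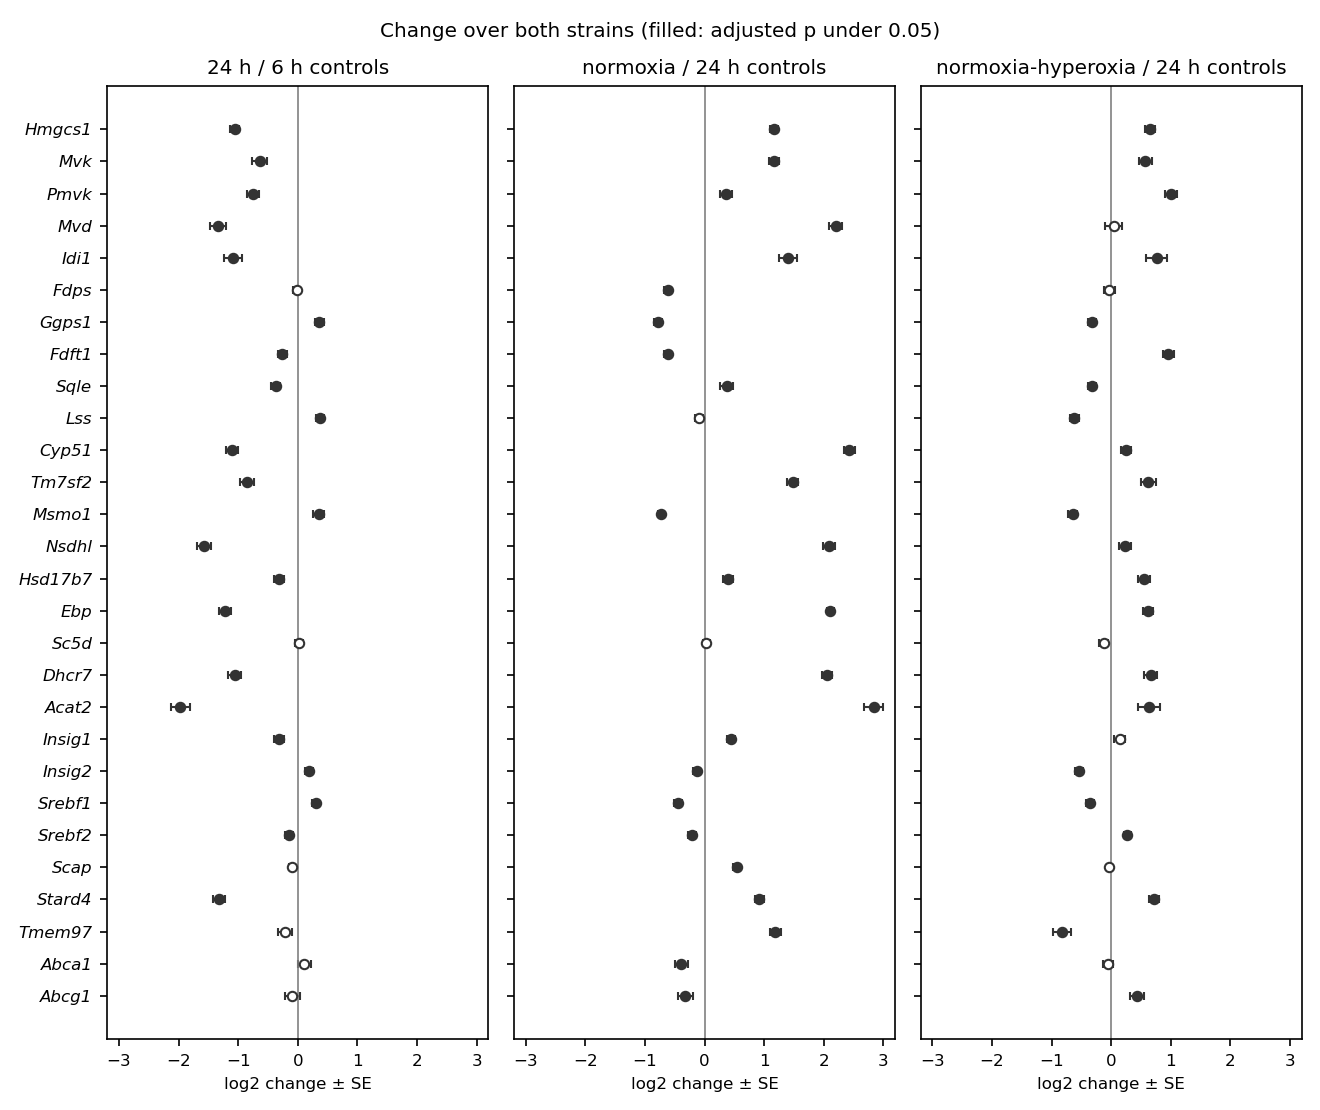
Points give the log2 change over both strains with bars of 1 SE, for the 28 members (rows) in 3 comparisons (panels), filled where the adjusted p was under 0.05. The first and middle panels lean to opposite sides, with Acat2 at -1.97 and 2.84, while the normoxia-hyperoxia panel holds changes between -0.83 and 1.0; the last 2 panels share the 24 h controls with the first.

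Under normoxia-hyperoxia the members stood closer to the 24 h controls, and the gene-by-gene pattern was another. Of the 28, 15 were higher and 7 lower than the 24 h controls, against 34.1% of all 17256 genes in each direction, with a median log2 change of 0.24 (all genes 0.00). With library totals alone all genes moved by -0.17 and the split was 11 higher and 10 lower, with no shares of all genes given for that scaling. The range ran from -0.83 for Tmem97 to 1.00 for Pmvk. Of the genes that rose most under normoxia, Mvd had log2 0.04 (adjusted p = 0.824), Nsdhl 0.23 (adjusted p = 0.0448) and Cyp51 0.25 (adjusted p = 0.0169) here, while Acat2 stood at 0.64 (adjusted p = 0.0077), Ebp at 0.62 (adjusted p = 7.02e-06) and Dhcr7 at 0.66 (adjusted p = 5.29e-05). Nsdhl missed the threshold in 8 of 12 fits without 1 library (adjusted p up to 0.13; it passed without DBA/2J 24 h control replicate 1, C57BL/6J 24 h control replicate 2, C57BL/6J normoxia-hyperoxia replicate 2 or DBA/2J normoxia-hyperoxia replicate 3), and Cyp51 missed it without C57BL/6J normoxia-hyperoxia replicate 2 (adjusted p = 0.0511). Neither passed in the fit of all 48 libraries (adjusted p = 0.196 for Nsdhl and 0.0646 for Cyp51).

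Pmvk rose from 10.5, 13.7 and 9.47 to 23.1, 21.8 and 23.7 CPM in C57BL/6J and from 11, 10.7 and 12.6 to 20.1, 22.5 and 25.4 in DBA/2J. That is 2.0-fold without overlap (log2 1.00, SE 0.0977, adjusted p = 3.28e-07). Fdft1, lower under normoxia, rose 1.94-fold here (log2 0.96, SE 0.0933, adjusted p = 4.38e-07), to 132.0, 104.0 and 131.0 CPM in C57BL/6J and 76, 82.5 and 108.0 in DBA/2J, above all 24 h controls. Idi1, the member with the lowest level per kilobase, rose 1.69-fold (log2 0.76, SE 0.181, adjusted p = 0.00167). Its CPM went from 3.05, 2.78 and 2.28 to 4.42, 5.53 and 4.92 in C57BL/6J and from 2.42, 2.14 and 3.78 to 5.58, 3.15 and 4.0 in DBA/2J, where the conditions overlapped. Stard4 rose 1.64-fold (log2 0.71, SE 0.0848, adjusted p = 2.73e-06), to 56.8, 52 and 50.9 in C57BL/6J and 56.9, 61.7 and 60.8 in DBA/2J, without overlap.

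Tmem97 fell 1.78-fold (log2 -0.83, SE 0.154, adjusted p = 0.000209), from 7.92, 8.0 and 7.56 to 3.34, 5.74 and 3.01 CPM in C57BL/6J and from 8.63, 6.69 and 7.81 to 5.22, 4.72 and 4.2 in DBA/2J. Every library was below its controls, although Tmem97 had risen under normoxia. Msmo1 fell 1.57-fold (log2 -0.65, SE 0.0785, adjusted p = 2.95e-06), to 40.2, 52.6 and 56.3 in C57BL/6J and 39.4, 39.8 and 47.2 in DBA/2J. Lss fell 1.54-fold (log2 -0.62, SE 0.0729, adjusted p = 2.18e-06), to 20.1, 19.6 and 17.9 and to 20.1, 16.8 and 21.1. Both lay below all their controls. Insig2 fell 1.45-fold (log2 -0.54, SE 0.0632, adjusted p = 2.33e-06), from 45.7, 42.5 and 41.6 to 33, 31.4 and 34.1 CPM in C57BL/6J and from 46.8, 50.2 and 42.5 to 27.6, 32 and 29.1 in DBA/2J, also without overlap.

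Insig1 had log2 0.14 (adjusted p = 0.19) and did not pass. Srebf1 fell by 0.36 (adjusted p = 0.000148) and Sqle by 0.32 (adjusted p = 0.00055), while Srebf2 rose by 0.27 (adjusted p = 0.00061). Abca1 had log2 -0.05 (adjusted p = 0.624) and did not pass, and Abcg1 rose by 0.43 (adjusted p = 0.00452). With library totals alone Srebf2 (adjusted p = 0.142), Abcg1 (adjusted p = 0.0612), Cyp51 (adjusted p = 0.406) and Nsdhl (adjusted p = 0.587) did not pass. Of the proximal tubule markers 4 of 6 were lower than in the 24 h controls, with a median of -0.79 and sums of 141 to 267 CPM in C57BL/6J and 532 to 786 in DBA/2J. Markers of other tubule segments were higher: both of the distal convoluted tubule (median 3.03), all 3 intercalated cell markers (median 3.86), all 3 of principal cells (2.08) and both of the loop of Henle (1.96). So were 2 of 2 podocyte (0.88), 2 of 3 endothelial (0.94), 3 of 4 leukocyte (1.21) and 1 of 3 fibroblast markers (0.21), while 1 leukocyte marker and Star of the adrenal cortex (-1.02) were lower. The mitochondrial share was 11% to 17.4%, above the 3.39% to 7.87% of the 24 h controls. Their part in the members' levels was not tested.

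Cyp51 was the 1 member whose response passed the test of a difference between the strains here, where 1.43% of all genes did. Nsdhl came next (-0.76, adjusted p = 0.0706), and the count was 2 with DESeq2 or the replicate block and 3 with no filter on low counts. In C57BL/6J Cyp51 rose to 45, 59.7 and 52.3 CPM (log2 0.67, SE 0.12), and in DBA/2J it stood at 46.4, 37.9 and 44.4 against 50.8, 41 and 53.6 in the controls (log2 -0.17, SE 0.121). The difference was -0.84 (SE 0.17, adjusted p = 0.025). It did not pass without C57BL/6J 24 h control replicate 1 or 3, DBA/2J 24 h control replicate 1 or 3 or DBA/2J normoxia-hyperoxia replicate 2 (adjusted p from 0.0665 to 0.0882), nor in the fit of all 48 libraries (0.0589). The count was 2 without DBA/2J 24 h control replicate 2 or C57BL/6J normoxia-hyperoxia replicate 2.

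Set against each other, the 2 oxygen groups differed in 24 of the 28 members. Normoxia-hyperoxia was lower in 17 and higher in 7, where 36.5% and 37% of all 17228 genes were, with a median log2 change of -0.45 (all genes 0.02). The largest falls were those of Acat2 (4.52-fold; log2 -2.18, SE 0.146, adjusted p = 3.37e-08), Cyp51 (4.47-fold; -2.16, SE 0.0917, adjusted p = 1.49e-11), Mvd (4.44-fold; -2.15, SE 0.0994, adjusted p = 3.24e-11) and Tmem97 (4.01-fold; -2.01, SE 0.141, adjusted p = 3.82e-09). Acat2 had 11.3, 13.6 and 14.7 CPM under normoxia-hyperoxia in C57BL/6J and 29.6, 16.6 and 17.8 in DBA/2J, and Mvd 8.55, 9.29 and 9.78 and 14.4, 14 and 9.92. Tmem97 had 13.1, 15.3 and 16.8 CPM under normoxia in C57BL/6J and 21.2, 18.9 and 19 in DBA/2J. None of the 4 overlapped between the conditions.

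Fdft1 rose 3.02-fold from normoxia to normoxia-hyperoxia (log2 1.60, SE 0.0891, adjusted p = 3.26e-10), and all 3 branch point enzymes were higher. Abcg1 rose 1.7-fold (log2 0.76, SE 0.0968, adjusted p = 3.39e-06), from 10.9, 13.1 and 10.4 to 13.9, 16.2 and 17.8 CPM in C57BL/6J and from 6.46, 7.63 and 8.47 to 17.7, 14.5 and 16.1 in DBA/2J. Pmvk rose 1.57-fold (log2 0.65, SE 0.0756, adjusted p = 1.28e-06) from 14.8, 14.8 and 15.6 in C57BL/6J and 14.6, 12.4 and 13 in DBA/2J under normoxia, and Fdps 1.52-fold (log2 0.60, SE 0.089, adjusted p = 1.76e-05), to 42.1, 31.5 and 47.7 and to 36.9, 38.8 and 37.6. These 4 genes separated the conditions in both strains. Srebf2 rose by 0.50 (adjusted p = 7.43e-06) and Abca1 by 0.36 (adjusted p = 0.00157), and Sqle fell by 0.67 (adjusted p = 0.000164), Insig2 by 0.39 (adjusted p = 1.16e-05) and Insig1 by 0.29 (adjusted p = 0.0137). Insig1 did not pass with library totals alone (adjusted p = 0.0719), nor did Stard4 (log2 -0.20 with TMM, -0.11 with totals alone, adjusted p = 0.0948). In the fit of all 48 libraries Abca1 (adjusted p = 0.062) and Stard4 (0.0878) did not pass. Srebf1 had log2 0.11 (adjusted p = 0.123) and did not pass. All 6 proximal tubule markers were lower under normoxia-hyperoxia, with a median of -4.61, as were 3 of 3 hepatocyte markers (-1.95). Higher were 2 of 2 of the distal convoluted tubule (1.32), 3 of 3 of principal cells (0.87), 2 of 3 of intercalated cells (0.67), 2 of 2 of podocytes (1.39), 3 of 3 of endothelium (0.93), 4 of 4 of leukocytes (1.0), 1 of 3 of fibroblasts (0.18) and Star of the adrenal cortex (1.56). Their part was not tested.

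The step from normoxia to normoxia-hyperoxia differed between strains in 6 members, against 18.2% of all genes. Nsdhl fell by 2.48 on the log2 scale in DBA/2J (SE 0.134), from 197.0, 160.0 and 144.0 to 35, 32.3 and 27.7 CPM. In C57BL/6J it fell by 1.21 (SE 0.131), from 51.5, 44.3 and 55.1 to 20.4, 20.4 and 24.1. The difference was -1.27 (SE 0.184, adjusted p = 0.000556), and the strains did not overlap in either condition. Cyp51 fell by 2.7 (SE 0.133) in DBA/2J and by 1.62 (SE 0.127) in C57BL/6J, a difference of -1.08 (SE 0.178, adjusted p = 0.00113). Hsd17b7, the ketosteroid reductase that follows Nsdhl, rose in C57BL/6J from 12.8, 15.7 and 16.2 to 23.9, 19.7 and 23.5 CPM (log2 0.60, adjusted p = 0.00245). In DBA/2J it had 22.9, 19.5 and 24.2 and then 15.4, 19.7 and 23.5 (log2 -0.26, adjusted p = 0.137), a difference of -0.86 (SE 0.211, adjusted p = 0.0118). Msmo1 had log2 0.39 in C57BL/6J and -0.20 in DBA/2J, a difference of -0.59 (SE 0.162, adjusted p = 0.0212), which did not pass in 5 of 12 fits without 1 library (C57BL/6J normoxia replicate 2, DBA/2J normoxia replicate 1, C57BL/6J normoxia-hyperoxia replicate 3, DBA/2J normoxia-hyperoxia replicates 1 and 2; adjusted p up to 0.0689). The count of 6 became 3 without C57BL/6J normoxia replicate 2, C57BL/6J normoxia-hyperoxia replicate 3 or DBA/2J normoxia-hyperoxia replicate 1. It was 2 higher and 3 lower with library totals alone, where no share of all genes is given, against 0 and 6. In the fit of all 48 libraries the differences of Msmo1 (adjusted p = 0.0904), Srebf2 (0.0869) and Insig2 (0.173) did not pass.

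The drugs moved the members little. Tunicamycin at 6 h changed none of them, and no gene of the 16551 tested passed (0.0%). Members' log2 changes lay between -0.17 for Abca1 and 0.12 for Lss, with SE of 0.0535 to 0.163, and none had an unadjusted p under 0.05. Insig1 (0.01), Insig2 (-0.06), Srebf1 (-0.03), Srebf2 (0.07), Sqle (-0.07) and Abcg1 (-0.17) lay inside that range. DESeq2 passed no member either.

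At 24 h of tunicamycin 0.97% of all 16905 genes were higher and 0.408% lower, and again no member passed in edgeR's quasi-likelihood test. DESeq2 passed 3 of the 28, and the share of all genes it passed is not given here. In edgeR's test 4 of the 28 had an unadjusted p under 0.05, as 12.9% of all genes did. The fitted changes of all 4 were positive, and Fdps and Ebp overlapped their controls in C57BL/6J. Mvd came nearest, with 13.6, 17.7 and 10.2 CPM in C57BL/6J and 18.4, 17.2 and 22.8 in DBA/2J, where every library exceeded its 24 h controls (log2 0.65, SE 0.151, adjusted p = 0.0561, between 0.00374 and 0.149 over the alternatives). It passed with the replicate block (adjusted p = 0.0112), with no filter on low counts (0.0227), in the fit of all 48 libraries (0.0151) and in DESeq2 (0.00374). Insig1 had 32.4, 40 and 29.8 CPM against 24.3, 27.5 and 28.3 in C57BL/6J and 31.7, 34.1 and 38.5 against 31.1, 28 and 28.8 in DBA/2J. It too separated in both strains (log2 0.30, SE 0.0782, adjusted p = 0.085, between 0.0194 and 0.208 over the alternatives). Fdps had log2 0.24 (SE 0.0647, adjusted p = 0.101, range 0.0336 to 0.241) and Ebp 0.35 (SE 0.102, adjusted p = 0.122, range 0.0204 to 0.269). Without C57BL/6J tunicamycin 24 h replicate 3, which had the lowest value of its group for Mvd, Insig1, Fdps and Ebp, all 4 passed. The remaining members lay between -0.12 for Abcg1 and 0.16 for Tmem97, among them Acat2 (-0.02), Sqle (0.09), Insig2 (-0.04), Srebf1 (0.07), Srebf2 (0.05) and Abca1 (0.11). None of the 6 proximal tubule markers passed at this time.

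Cyclosporin A changed no member at 6 h or at 24 h, nor any gene among the 16538 and 16887 tested (0.0% each), in edgeR's test. DESeq2 passed no member, 1 member had an unadjusted p under 0.05 at 6 h, as 4.44% of all genes did, and 2 did at 24 h, as 6.56% of all genes did. At 6 h the log2 changes ran from -0.23 for Abcg1 to 0.19 for Hsd17b7, with Insig1 at 0.12, Srebf2 at 0.10, Sqle at 0.06, Srebf1 at -0.04, Insig2 at -0.05 and Abca1 at -0.19. At 24 h they ran from -0.08 for Ggps1 to 0.20 for Dhcr7, with Insig1 at 0.14, Srebf2 at 0.10, Abcg1 at 0.05, Srebf1 at 0.03, Abca1 at -0.01, Sqle at -0.03 and Insig2 at -0.07. SE reached 0.257 for Abca1, whose DBA/2J libraries at 24 h held 18.8, 27.4 and 61.6 CPM. Neither drug had a response that differed between the strains in any member or in any gene (0.0%), by edgeR's test. DESeq2 gave no such member, and at 6 h 1 member had an unadjusted p under 0.05 for each drug (all genes 1.74% for tunicamycin and 2.46% for cyclosporin A). A missed threshold does not show that the drugs left the pathway unchanged, and the doses are not given.

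**Figure D4:**
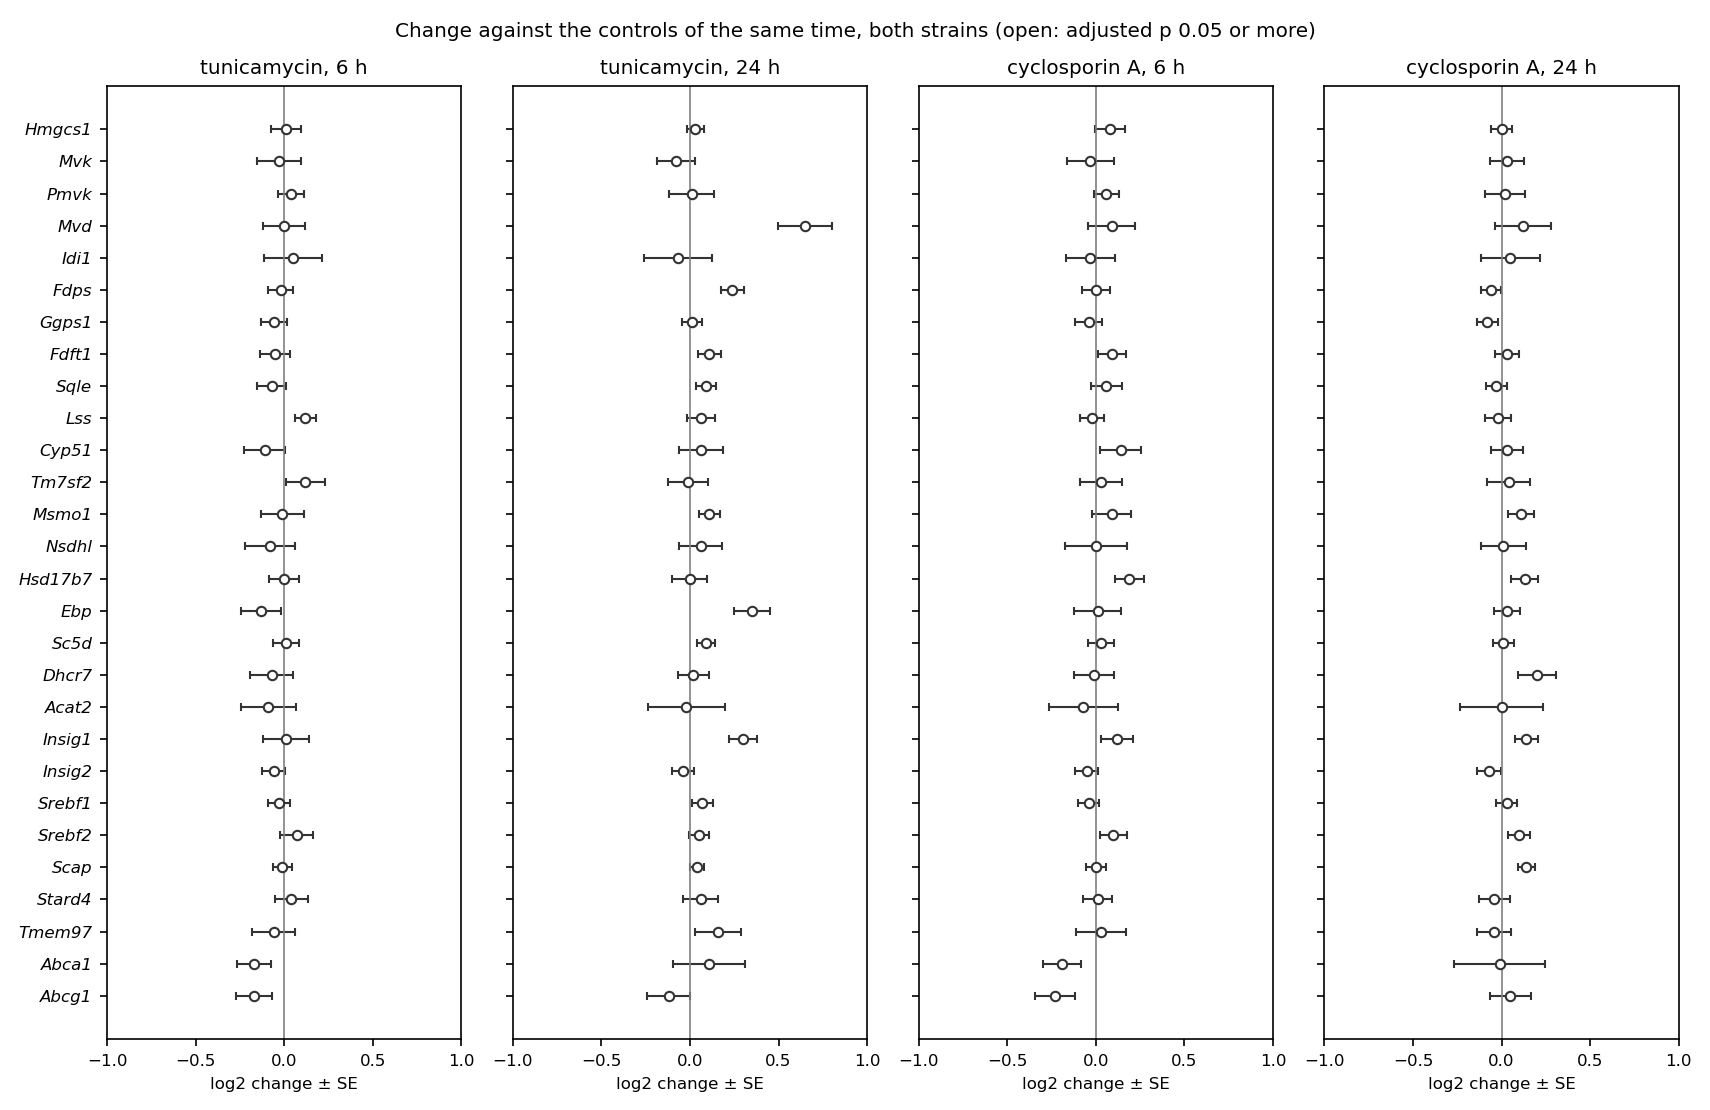
Points give each member's log2 change over both strains with bars of 1 SE, against the controls of the same time, in 4 panels for the 2 drugs at 6 h and 24 h. All points are open (adjusted p of 0.05 or more), and Mvd at 0.65 under tunicamycin at 24 h lies farthest from 0.

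Strains differed in 8 to 19 of the 28 members in the 4 conditions compared. In the 6 h controls 11 members were higher and 4 lower in DBA/2J than in C57BL/6J, where 13.6% and 12.7% of all genes were. In the 24 h controls 7 were higher and 3 lower (13.9% and 8.27% of all genes), under normoxia 15 and 4 (28.3% and 18.5%), and under normoxia-hyperoxia 5 and 3 (14.3% and 11.3%), where the members' counts lie near the shares of all genes. Of the 28 members 6 passed in all 4 conditions, while the share of all genes that did so was not counted. Nsdhl, Acat2, Mvk and Mvd were higher in DBA/2J throughout, and Sc5d and Ggps1 lower. For Mvk and Mvd some of these calls rested on single libraries. Mvk at 6 h did not pass without C57BL/6J 6 h control replicates 2 or 3 or DBA/2J 6 h control replicates 1 or 2 (adjusted p up to 0.113), and at 24 h without any of the 24 h controls except DBA/2J replicate 2 (up to 0.0859). Mvd at 6 h did not pass without C57BL/6J 6 h control replicates 2 or 3 or DBA/2J 6 h control replicate 1 (up to 0.0792), and missed the threshold in 8 of 12 fits at 24 h (up to 0.174) and in 8 of 12 under normoxia-hyperoxia (up to 0.225). Acat2 under normoxia-hyperoxia did not pass without C57BL/6J replicates 1 or 2 or DBA/2J replicate 1 (up to 0.128). In the fit of all 48 libraries Acat2 passed neither at 6 h (adjusted p = 0.0523) nor under normoxia-hyperoxia (0.11), and Mvd neither at 24 h (0.0632) nor under normoxia-hyperoxia (0.147). Mvd under normoxia-hyperoxia did not pass with the replicate block either (0.0545).

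Sc5d, which introduces a double bond late in the route, was low in every DBA/2J library. At 6 h it had 18.2, 20.4 and 20 CPM in DBA/2J and 37.1, 41 and 41 in C57BL/6J (log2 -1.0, SE 0.0872, adjusted p = 1.41e-06), at 24 h 22.3, 22.1 and 20.9 against 37.9, 36.8 and 37.8 (log2 -0.77, SE 0.0865, adjusted p = 1.85e-05). Under normoxia it had 20.9, 18 and 19 against 42.1, 40.9 and 42.3 (log2 -1.03, SE 0.0977, adjusted p = 1.23e-06), and under normoxia-hyperoxia 19.6, 17.1 and 20.4 against 31.9, 35.3 and 39.6 (log2 -0.90, SE 0.101, adjusted p = 1.42e-05). The strains never overlapped. Over both strains Sc5d did not pass in the comparisons of time and oxygen, with log2 changes from -0.15 to 0.03. Ggps1 was lower in DBA/2J by 0.76 (SE 0.104, adjusted p = 0.000103) at 6 h, 0.70 (SE 0.102, adjusted p = 0.000211) at 24 h, 0.49 (SE 0.106, adjusted p = 0.00162) under normoxia and 0.87 (SE 0.107, adjusted p = 3.37e-05) under normoxia-hyperoxia, where it had 22.8, 20.6 and 25.3 CPM against 40.6, 39 and 46.6. The strains did not overlap for Ggps1 in these 4 conditions.

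Nsdhl showed the reverse. It was higher in DBA/2J by log2 1.12 (SE 0.166, adjusted p = 0.000298) at 6 h, 1.32 (SE 0.176, adjusted p = 0.000149) at 24 h, 1.81 (SE 0.127, adjusted p = 8.96e-08) under normoxia and 0.54 (SE 0.135, adjusted p = 0.00929) under normoxia-hyperoxia. Normoxia held its widest gap, 3.51-fold, and the last value missed the threshold without DBA/2J normoxia-hyperoxia replicate 1 (adjusted p = 0.0502) and in the fit of all 48 libraries (adjusted p = 0.0801). Cyp51 was higher in DBA/2J at 6 h, with 106.0, 112.0 and 140.0 CPM against 49.3, 64.4 and 64.5 (log2 1.02, SE 0.135, adjusted p = 8.39e-05), at 24 h (0.57, adjusted p = 0.00778) and under normoxia (0.79, SE 0.122, adjusted p = 0.000115), and under normoxia-hyperoxia it had the opposite sign and did not pass (-0.29, adjusted p = 0.115). Stard4 at 24 h was higher in DBA/2J by log2 0.76 (SE 0.135, adjusted p = 0.001), Mvd under normoxia by 0.79 (SE 0.127, adjusted p = 0.00015), and under normoxia-hyperoxia Mvk by 0.78 (SE 0.137, adjusted p = 0.000723) and Dhcr7 by 0.69 (SE 0.138, adjusted p = 0.0019). Mvk there had 13.7, 15.4 and 11 CPM against 7.53, 8.21 and 6.93, without overlap.

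Of the members named in every comparison, Sqle was higher in DBA/2J at 6 h (log2 0.53, adjusted p = 0.00191), Insig1 (0.41, adjusted p = 0.0192), Srebf1 (0.29, adjusted p = 0.0136) and Srebf2 (0.35, adjusted p = 0.00799) under normoxia, and Abcg1 was lower at 6 h (-0.51, adjusted p = 0.0416), at 24 h (-0.52, adjusted p = 0.0421) and under normoxia (-0.52, adjusted p = 0.00632). Of these, Abcg1 did not pass in 7 of 12 fits without 1 library at 6 h (adjusted p up to 0.165) and in 6 of 12 at 24 h (up to 0.173), Insig1 did not without C57BL/6J normoxia replicates 1 or 3 or DBA/2J normoxia replicate 3 (up to 0.0771), and Srebf1 did not without C57BL/6J normoxia replicate 2 or DBA/2J normoxia replicate 3 (up to 0.0764). With no filter on low counts Srebf2 (adjusted p = 0.0687) and Srebf1 (0.226) did not pass under normoxia, nor did Insig1 there in the fit of all 48 libraries (0.0706), and with the replicate block Abcg1 did not at 24 h (0.0506). Insig2 and Abca1 passed in none of the 4. The strain counts rested in part on single libraries. At 6 h 15 members became 7 without C57BL/6J replicate 2 and 9 without C57BL/6J replicate 3 or DBA/2J replicate 2. At 24 h 10 became 6 without C57BL/6J replicate 2 or 3 or DBA/2J replicate 1 or 3, and under normoxia-hyperoxia 8 became 4 without DBA/2J replicate 1. With library totals alone the 6 h split was 15 higher and 2 lower, with no shares of all genes given for that scaling. Sums of the proximal tubule markers were higher in DBA/2J in all 4 conditions, without overlap. Many other marker sums were higher in C57BL/6J. Of 12 marker lists 7 were higher in C57BL/6J without overlap at 6 h and 1 in DBA/2J, 4 and 3 at 24 h, 9 and 1 under normoxia and 3 and 2 under normoxia-hyperoxia. Under normoxia the loop of Henle sum was 8550 to 14900 CPM in C57BL/6J and 2040 to 4250 in DBA/2J, and the intercalated cell sum 370 to 441 and 167 to 229. The mitochondrial share was also higher in C57BL/6J at 6 h (14.8% to 16.3% against 8.05% to 8.32%), at 24 h (5.96% to 7.87% against 3.39% to 3.6%) and under normoxia (22.8% to 25.6% against 11.8% to 12.8%), and overlapped under normoxia-hyperoxia. Reads of both strains were counted against GRCm38, which is the C57BL/6J genome, and the part of any of these in the strain differences was not tested.

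**Figure D5:**
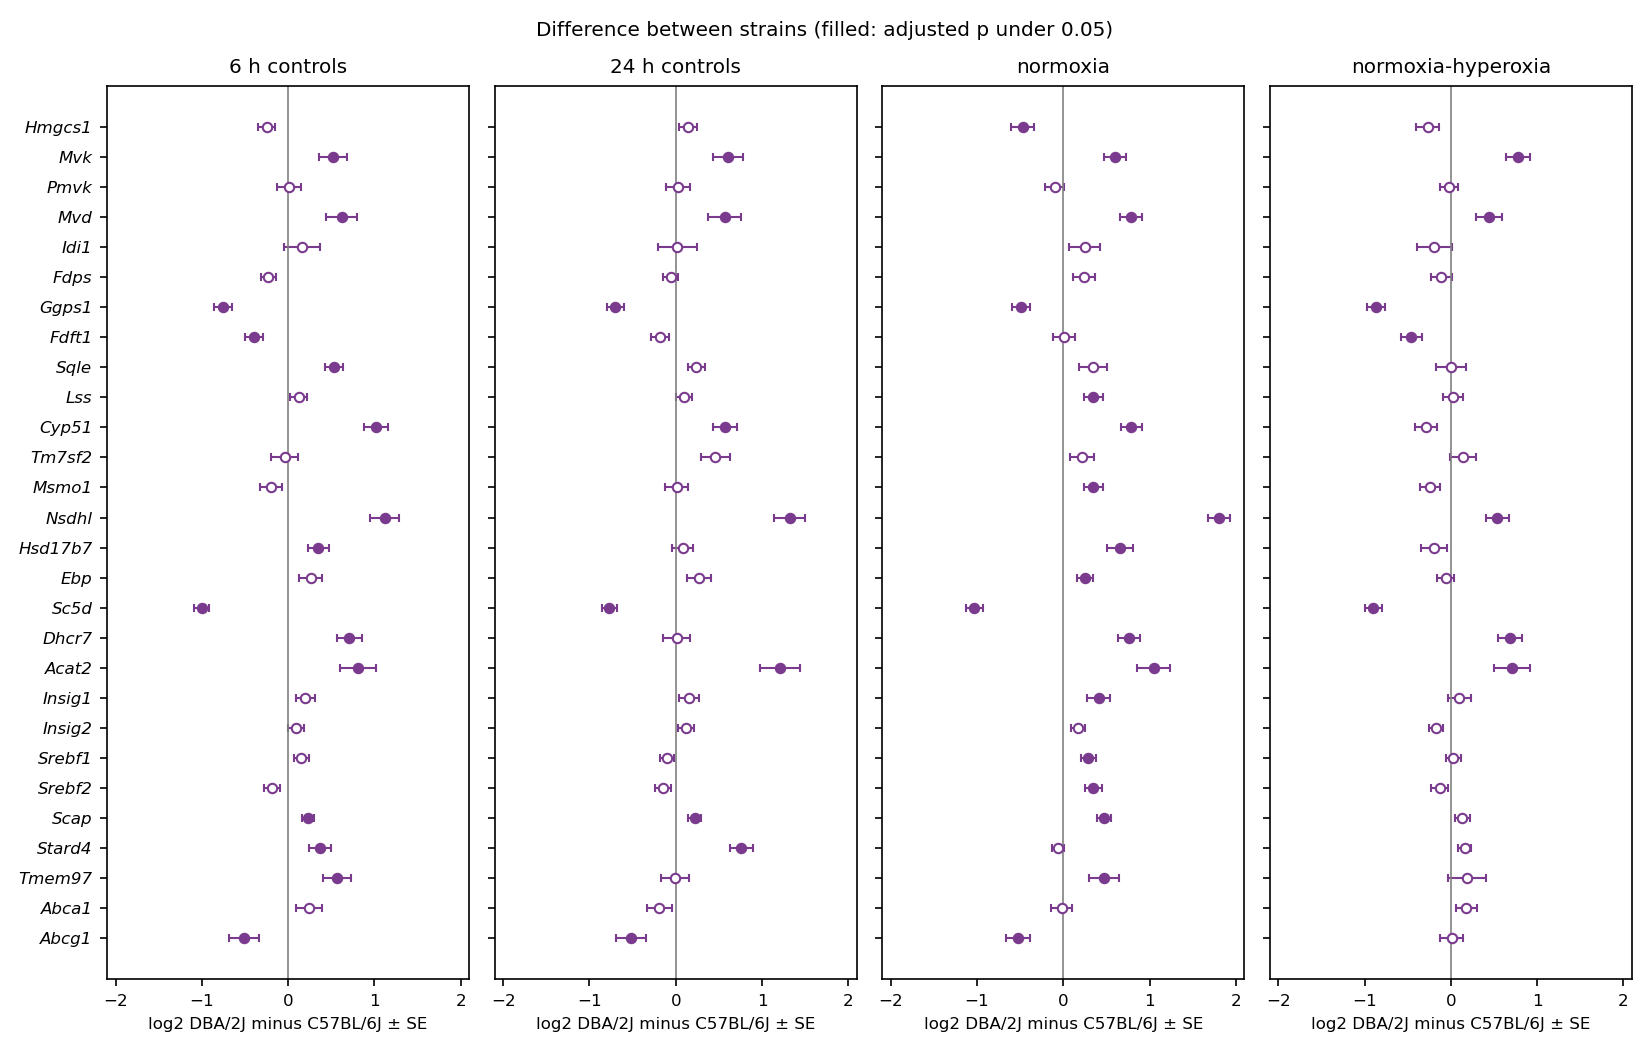
Points give the log2 difference between strains (DBA/2J minus C57BL/6J) with bars of 1 SE for the 28 members in 4 conditions, filled where the adjusted p was under 0.05. Sc5d and Ggps1 lie left of 0 and Nsdhl, Acat2, Mvk and Mvd right of 0 in all 4 panels, and Nsdhl reaches 1.81 under normoxia.

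Other genes of sterol metabolism, in lists named for their pathway, give the setting. Their counts are to be read against the shares of all genes higher and lower, which were 34.7% and 37.4% at 24 h against 6 h, 42.4% and 39.7% under normoxia and 34.1% each under normoxia-hyperoxia against the 24 h controls, and 37% and 36.5% in normoxia-hyperoxia against normoxia. Several counts lie near these shares, and the lists were not tested. Of 12 further sterol pathway and SREBP2 genes, 3 were higher and 4 lower at 24 h than at 6 h, 8 and 4 under normoxia against 24 h controls, 2 and 8 under normoxia-hyperoxia against those controls, and 2 and 9 against normoxia. Acss2, which makes acetyl-CoA from acetate, fell at 24 h by 1.86 on the log2 scale and rose by 2.96 under normoxia against 24 h controls. Rdh11, a retinol dehydrogenase, did the opposite, with 2.1 and -1.86.

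Of the 12 genes of the isoprenoid and dolichol branch, which leads from Fdps to ubiquinone and N-glycan carriers, 10 rose and 1 fell under normoxia, with Pdss2 at log2 1.40 and Dolpp1 at 1.39, although Fdps itself fell. At 24 h against 6 h 1 was higher and 5 lower, and under normoxia-hyperoxia 1 and 6 against the 24 h controls and 1 and 9 against normoxia. Of the 10 genes that process SREBPs or degrade sterol-regulated proteins, 6 were higher and 1 lower at 24 h, 4 and 4 under normoxia, and 1 and 8 under normoxia-hyperoxia. Mbtps2, a protease that releases SREBPs, rose at 24 h by log2 0.59 and fell under normoxia-hyperoxia by 1.02. Against normoxia, 1 was higher and 7 lower.

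Of the fatty acid genes driven mainly by SREBP1, 14 of 15 were tested. Of these 3 were higher and 10 lower at 24 h than at 6 h, 10 and 2 under normoxia against the 24 h controls, 8 and 5 under normoxia-hyperoxia, and 3 and 9 in normoxia-hyperoxia against normoxia. The desaturases Scd1 and Fads2 fell at 24 h, by 1.25 and 1.70 on the log2 scale, and rose under normoxia, by 3.10 and 3.06. Fasn, the fatty acid synthase, went the other way, with 1.13 and -0.76, as Srebf1 did. Of 12 LXR receptors, oxysterol enzymes and targets, 1 was higher and 8 lower at 24 h, 8 and 3 under normoxia, 7 and 1 under normoxia-hyperoxia, and 5 and 5 in the last comparison. Cyp27a1, which oxidises cholesterol in mitochondria, fell by 2.02 at 24 h and rose by 2.54 under normoxia. Ch25h, another oxysterol enzyme, fell by 1.02 at 24 h and was lower by 3.71 under normoxia than in the 24 h controls. Of 12 genes of sterol trafficking and esterification, 7 were higher and 4 lower at 24 h, 4 and 6 under normoxia, 2 and 6 under normoxia-hyperoxia, and 4 and 7 in the last comparison. Soat1, which esterifies cholesterol for storage, rose by 0.93 at 24 h and fell by 0.55 under normoxia, and Lipa, the lysosomal lipase that frees cholesterol, did the reverse, with -1.25 and 1.79. At 24 h of tunicamycin 1 gene of the 6 lists passed, the sterol carrier Stard5 (log2 0.38, SE 0.0785, adjusted p = 0.0327).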

How the data were processed

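RNA of 48 libraries was prepared with an Illumina stranded mRNA kit, per the labels' protocols. The submitters' processing notes name bcl2fastq 2.20.0, FastQC 0.11.8, STAR 2.7.9a, featureCounts 1.5.1 and the GRCm38 build; the strand setting and annotation release are not given in the sources used here. The authors deposited raw read counts per Ensembl gene, and these counts were used as deposited. Libraries were grouped by strain, treatment and time from their labels.

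For each of 8 comparisons, 12 libraries in 4 groups were fitted with edgeR 4.0.16 (R 4.3.3, limma 3.58.1): TMM factors, filterByExpr, robust quasi-likelihood fit, 8 residual degrees of freedom, Benjamini-Hochberg adjustment over all genes tested, and a threshold of 0.05. Contrasts were the mean over strains, the difference between strains in that change, and, in 4 conditions, DBA/2J minus C57BL/6J. Levels are CPM with TMM factors over all 48 libraries; CPM per kb uses the union of exons. The method was tested on simulated counts with 200 changed genes. Alternatives were DESeq2 1.42.0, its size factors in edgeR, no filter, 1 fit of all 48 libraries, a replicate block and leaving out each library. Scaling by library totals alone was chosen after seeing the data. Replicate numbers were not treated as pairs. Depth of 5619309 to 25137581 counts limits low genes. Tables and figures used Python 3.11.15, pandas 2.3.3, numpy 2.4.6 and matplotlib 3.10.9.

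The 28 members, the 6 gene lists and the marker lists were chosen with earlier results of these data known. Any member could be named. Full statistics were given for up to 4 called members with the largest rise and 4 with the largest fall per comparison, and for up to 4 with the smallest p per strain contrast; Insig1, Insig2, Srebf1, Srebf2, Sqle, Abca1 and Abcg1 were described throughout.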

Additional observations from a re-analysis of the deposited data

Results flagged for a closer look

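For 14 results the response differed between DBA/2J and C57BL/6J by edgeR's quasi-likelihood test of the difference itself. All values are the log2 change in DBA/2J minus that in C57BL/6J, from 3 libraries per group. For normoxia against the 24 h controls there were 7. The difference was -0.61 for Hmgcs1 (adjusted p = 0.00516), -0.81 for Stard4 (adjusted p = 0.00331) and 0.77 for Dhcr7 (adjusted p = 0.00588). It was 0.51 for Srebf2 (adjusted p = 0.0143), 0.59 for Hsd17b7 (adjusted p = 0.0275), with changes of 0.69 in DBA/2J and 0.10 in C57BL/6J, 0.35 for Msmo1 (adjusted p = 0.037), with -0.56 and -0.91, and 0.40 for Srebf1 (adjusted p = 0.0463), with -0.25 and -0.65. Over the alternatives the adjusted p reached 0.0902 for Srebf2, 0.133 for Hsd17b7, 0.43 for Msmo1 and 0.245 for Srebf1.

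For normoxia-hyperoxia against the 24 h controls the difference was -0.84 for Cyp51 (adjusted p = 0.025, up to 0.0882 over the alternatives). The same 24 h controls enter both comparisons.

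For normoxia-hyperoxia against normoxia there were 6. The difference was -1.27 for Nsdhl (adjusted p = 0.000556), -1.08 for Cyp51 (adjusted p = 0.00113) and -0.86 for Hsd17b7 (adjusted p = 0.0118). It was -0.59 for Msmo1 (adjusted p = 0.0212, up to 0.0958 over the alternatives), -0.48 for Srebf2 (adjusted p = 0.0234, up to 0.156), which rose by 0.74 in C57BL/6J and 0.26 in DBA/2J, and -0.34 for Insig2 (adjusted p = 0.0459, up to 0.373), which fell by 0.22 and 0.56. The Insig2 difference did not pass in 10 of the 12 fits that left out 1 library, and that of Srebf2 did not in 6. With the replicate block the Insig2 difference did not pass either (adjusted p = 0.0523).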

How the results depend on the processing

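Of the members called, 16 of 22 for time, 21 of 26 for normoxia, 18 of 22 for normoxia-hyperoxia against the 24 h controls and 21 of 24 against normoxia kept direction and call under every alternative. So did 3 of 7, 0 of 1 and 3 of 6 strain interactions in the last 3 of these comparisons, and 6 of 15, 6 of 10, 12 of 19 and 4 of 8 strain differences at 6 h, 24 h, normoxia and normoxia-hyperoxia. The change of Srebf2 with time reversed to 0.07 with library totals alone. For tunicamycin at 24 h, 0 members became 3 with no filter, 3 with DESeq2, 1 in the fit of all 48 libraries and 1 with the replicate block. The shares of all genes under these and the other alternatives are not given here. The time interaction went from 0 to 2 with no filter. The normoxia interaction went from 7 to 3 in the fit of all 48 libraries and 4 with library totals alone. The interaction of normoxia-hyperoxia with the 24 h controls went from 1 to 3 with no filter, 2 with DESeq2, 0 in the fit of all 48 libraries and 2 with the replicate block. The strain difference under normoxia-hyperoxia went from 8 to 5 in the fit of all 48 libraries. The replicate block moved no other count by over 1.5 times. Leaving out 1 library gave 0 to 4 members for tunicamycin at 24 h, 0 to 1 time interactions, 3 to 7 normoxia interactions, 0 to 2 for normoxia-hyperoxia against the 24 h controls and 3 to 8 against normoxia, and strain differences of 7 to 16 at 6 h, 6 to 10 at 24 h, 14 to 20 under normoxia and 4 to 8 under normoxia-hyperoxia. The cause of these shifts was not tested. Over both strains, no comparison had all 6 same-numbered pairs of libraries correlated above 0.1, but within 1 strain all 3 pairs were in 4 of 16 cases, and in 5 of 16 every library correlated best with its own number. This is a hint from the data, not the design. Depth limits the precision of members of low level, such as Idi1 at 1.92 to 8.31 CPM.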
